A study of Mus musculus with 12 samples.

Results

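RNA of the forebrain was compared between 6 memantine-treated and 6 vehicle-treated male mice, which are all 12 mice of the series. Each arm held 3 wild-type mice and 3 mice homozygous for a deletion of exons 6 and 7 of Shank2, a postsynaptic scaffold gene, so the WT and KO mice given vehicle (WT-Veh, KO-Veh) or memantine (WT-Mem, KO-Mem) formed 4 groups of 3 mice. Genotype was a covariate, and the comparison therefore asked what memantine shifted alike in both genotypes. All mice were C57BL/6N animals killed at postnatal day 25. Memantine was given by mouth at 20 mg/kg in 0.1% saccharin 2 times per day from postnatal day 7 to 21, and vehicle mice received the saccharin solution. The brains were therefore taken 4 days after the last dose. The methods give forebrain as the tissue and the labels give whole brain. Mothers reared WT and KO pups together, and which litter each mouse came from is not given in the sources used here, so the p-values below measure the spread between these mice and litter cannot be told apart from it. A gene was tested where its mean over the 12 mice was at least 10, which held for 17655 of 19312 genes.

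Memantine is an open-channel blocker of NMDA receptors, the glutamate receptors that pass calcium at excitatory synapses and that need an obligatory GluN1 subunit together with GluN2 or GluN3 subunits. The weeks of dosing fall within the period in which oligodendrocytes of the rodent forebrain mature from their precursors and wrap axons with myelin. Myelin is a stack of membranes rich in cholesterol and galactolipids and held together by membrane proteins and myelin basic protein. Its synthesis places a high demand on lipid enzymes, and the transcription factors SOX10 and MYRF drive its genes.

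No gene passed the adjusted threshold of 0.05 in the pooled comparison (limma, Benjamini-Hochberg over 17655 genes, smallest adjusted p = 0.374). An unadjusted p under 0.05 was reached by 1519 genes (8.60%), of which 877 (4.97%) had lower and 642 (3.64%) had higher values with memantine. Without KO-Mem mouse 1 the count of higher genes was 426. The difference was below 0 in 49.6% of all genes tested, and the median size of a log2 difference was 0.0752 with a median SE of 0.0845. Differences are on the log2 scale of the value plus 1, memantine minus vehicle, and in the absence of genes past the threshold a gene below is described only as having lower or higher values. In 107 genes (0.606%) the 3 memantine mice lay below the 3 vehicle mice in both genotypes, and in 69 genes (0.391%) they lay above them. The reads behind a value are not given, so no counting error can be attached to it.

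The genotype labels held at the targeted gene: Shank2 lay between 7156 and 8548 in the 6 WT mice and between 2706 and 3178 in the 6 KO mice, and memantine differed from vehicle by -0.019 ± 0.055 (SE). Of 8 telencephalic markers 4 lay below 0 in the pooled comparison, and their summed values ranged from 13425 to 15737 over the 12 mice. Of these 8 markers 1 had a higher unadjusted p under 0.05, against 3.64% of all genes, and 0 a lower one (limma). A pair of vehicle mice stood apart. KO-Veh mouse 3 had a summed cerebellar marker value (Gabra6, Cbln3, Pcp2 and 4 others) of 2550 against 365 to 581 in the other 11 mice, although the methods describe removal of the cerebellum. WT-Veh mouse 3 had the highest median deviation of myelin and of mitochondrially encoded genes, at 0.39 and 0.42. Leaving both mice out, a choice made after the data were seen, left 0 genes past the threshold, with 748 genes lower and 605 higher at an unadjusted p under 0.05.

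The promoters of 3 myelin genes and of 1 cholesterol gene described below are shown first, because these genes are read as groups that are thought to share regulators. RefSeq sequences on GRCm38.p6 were matched for 18 of the 27 myelin genes and 13 of the 19 cholesterol genes, and each line holds the 250 bases before the first listed transcription start, 5′ to 3′ on the strand of the gene. In the myelin genes capitals mark CTGGCAC, a core recognised by MYRF, and ACAAAG, a core of SOX sites. In Hmgcs1 they mark CACCCCAC, the core of the sterol regulatory element. Both strands were searched, so CTTTGT in Mag is ACAAAG on the other strand, and none of the marked matches overlapped another.
Tmem88b, chr4:155785875-155786124, minus strand: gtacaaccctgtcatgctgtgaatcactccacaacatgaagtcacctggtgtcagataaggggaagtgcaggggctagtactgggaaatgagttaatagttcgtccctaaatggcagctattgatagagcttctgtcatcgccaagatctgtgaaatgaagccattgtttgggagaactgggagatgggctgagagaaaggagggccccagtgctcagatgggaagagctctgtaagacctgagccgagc
Mag, chr7:30914864-30915113, minus strand: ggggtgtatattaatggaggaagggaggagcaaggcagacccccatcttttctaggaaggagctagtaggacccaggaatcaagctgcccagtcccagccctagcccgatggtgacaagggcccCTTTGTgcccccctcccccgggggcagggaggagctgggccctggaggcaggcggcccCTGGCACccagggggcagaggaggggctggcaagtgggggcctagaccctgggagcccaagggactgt
Opalin, chr19:41077114-41077363, minus strand: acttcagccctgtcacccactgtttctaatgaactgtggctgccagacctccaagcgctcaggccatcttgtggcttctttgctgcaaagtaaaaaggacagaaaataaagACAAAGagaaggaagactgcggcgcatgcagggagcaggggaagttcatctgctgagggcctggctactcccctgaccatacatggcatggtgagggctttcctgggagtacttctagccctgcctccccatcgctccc
Hmgcs1, chr13:119690101-119690350, plus strand: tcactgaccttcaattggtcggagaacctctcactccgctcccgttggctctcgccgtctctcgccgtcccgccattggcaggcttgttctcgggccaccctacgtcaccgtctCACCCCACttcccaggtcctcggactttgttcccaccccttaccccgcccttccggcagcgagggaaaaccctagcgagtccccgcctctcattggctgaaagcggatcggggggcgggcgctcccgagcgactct
CTGGCAC was found in 2 of the 18 myelin promoters (11.1%), those of Mag and Cnp, against 4.14% of 27025 promoters of the same length. ACAAAG was found in 5 of the 18 (27.8%), those of Mag, Mobp, Cnp, Gjb1, and Opalin, against 16.5% of all. CACCCCAC was found in 1 of the 13 cholesterol promoters (7.69%), that of Hmgcs1, against 2.51% of all. Tmem88b held none of these letters in this window while having the smallest p of all genes. A match is a description of letters and not of binding.

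Genes of mature oligodendrocytes and myelin had lower values in memantine-treated than in vehicle-treated mice of both genotypes. All 27 genes of the list were tested, all 27 lay below 0 in the pooled comparison, and 23 of 27 had an unadjusted p under 0.05, all in the lower direction, against 4.97% of all genes. Their median log2 difference was -0.25, against 0.00082 over all genes tested. Within genotypes the median was -0.34 in KO-M/V, where 27 lay below 0, and -0.18 in WT-M/V, where 26 did. A lower unadjusted p under 0.05 was reached by 22 in KO-M/V, against 4.53% of all genes, and by 11 in WT-M/V, against 2.45%. Of the 100 lower genes with the smallest pooled p, 13 were on this list, which held 27 of the 17655 genes tested. In bulk RNA, fewer oligodendrocytes and less RNA per oligodendrocyte cannot be told apart.

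Tmem88b, which encodes a transmembrane protein found in oligodendrocytes (chromosome 4, 155781591 to 155785874, GRCm38), had the smallest p of the comparison. The normalised values of Tmem88b were 1975, 2314 and 2476 with vehicle against 1810.5, 1658 and 1684 with memantine in WT mice, and 1539, 1713 and 1663 with vehicle against 1105, 1354 and 1349 with memantine in KO mice. In both genotypes each memantine mouse lay below each vehicle mouse, and the WT-Mem and KO-Veh mice overlapped. The pooled difference was -0.38 ± 0.065 (SE), with an unadjusted p of 3.23e-05 and an adjusted p of 0.374 (limma), and it was -0.37 in KO-M/V against -0.39 in WT-M/V.

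Plekhh1, a gene of oligodendrocytes with a pleckstrin homology domain, came next on the list. The normalised values of Plekhh1 were 1955, 2114 and 2124 with vehicle against 1923, 1606 and 1774 with memantine in WT mice, and 1823, 1814 and 1759 with vehicle against 1477, 1507 and 1584 with memantine in KO mice. The memantine mice were again below the vehicle mice of their own genotype, by little for WT-Mem mouse 1, and the difference was -0.23 ± 0.049 (SE), with an unadjusted p of 0.000234. Mal encodes a membrane protein of compact myelin. The normalised values of Mal were 14715, 14929.9 and 15757 with vehicle against 13006, 12391 and 14714 with memantine in WT mice, and 15558, 13361 and 14609.7 with vehicle against 12166, 12575 and 11758 with memantine in KO mice. The groups did not overlap within either genotype, though WT-Mem mouse 3 lay just under the lowest WT-Veh mouse, and the difference was -0.22 ± 0.049 (SE), with an unadjusted p of 0.000518.

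In 8 of the 27 genes the memantine mice lay below the vehicle mice in both genotypes, against 0.606% of all genes, and these were Tmem88b, Plekhh1, Mal, Cmtm5, Padi2, Opalin, Gpr37, and Aspa. Opalin, a glycoprotein of the myelin paranodal loops and the inner tongue, differed by -0.34 ± 0.080 (SE), with an unadjusted p of 0.000744. Aspa, which encodes the enzyme that releases acetate from N-acetylaspartate, differed by -0.39 ± 0.10 (SE), with an unadjusted p of 0.00136. Gpr37, an orphan receptor of maturing oligodendrocytes, differed by -0.27 ± 0.067 (SE), with an unadjusted p of 0.000954. The largest differences on the list were those of Padi2, a peptidylarginine deiminase that citrullinates myelin basic protein, at -0.50 ± 0.12, and Gjb1, which encodes connexin 32, at -0.47 ± 0.12. Padi2, Cmtm5, and Fa2h are also on the study's list for KO-M/V, which was chosen on these mice.

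**Figure D1:**
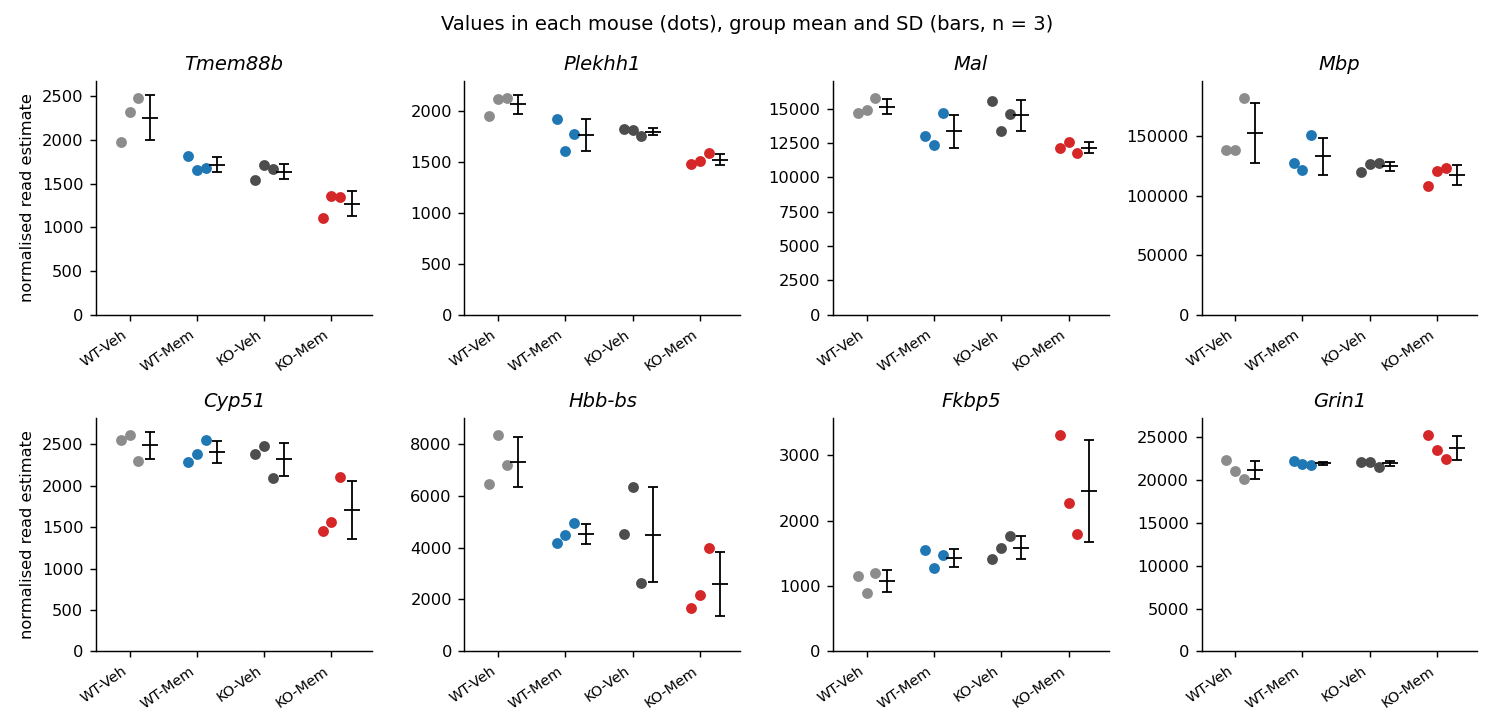
Normalised read estimates of 8 genes in each of the 12 mice (dots) with the group mean and SD (bars, n = 3), on vertical axes that start at 0. In Tmem88b, Plekhh1, and Mal each memantine group lies below the vehicle group of its genotype, in Fkbp5 above it, and in Mbp the groups overlap in both genotypes.

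Mbp, which compacts the membrane layers, had 138107, 138161 and 181570.4 with vehicle against 127430.3, 121242 and 150471 with memantine in WT mice, and 120044, 126700.0 and 126982 with vehicle against 108062, 120814 and 122932 with memantine in KO mice. WT-Veh mouse 3 was far above the other mice, both genotypes overlapped, and the difference was -0.14 ± 0.072 (SE), with an unadjusted p of 0.0705 and a 95% interval of -0.29 to 0.013. It was 0.0026 after quantile normalisation and -0.076 without WT-Veh mouse 3, which also moved Sox10 to -0.094. Of the other myelin proteins, Cnp, a phosphodiesterase of noncompact myelin, differed by -0.24, Mag, an adhesion protein facing the axon, by -0.19, Mobp by -0.17, Mog, a protein of the outermost lamella, by -0.30, and Cldn11, the tight junction claudin of myelin, by -0.17, with unadjusted p-values of 0.00314, 0.00185, 0.00482, 0.00639, and 0.0119. The 4 members without an unadjusted p under 0.05 were Mbp, Sox10 (-0.16), Enpp6 (-0.25), and the tetraspanin Tspan2 (-0.048 ± 0.048).

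The 2 transcription factors of the list differed by less than its median. Myrf differed by -0.13 ± 0.050 (SE), with an unadjusted p of 0.0183, with overlapping groups in both genotypes, and Sox10 by -0.16 ± 0.077 (SE), with an unadjusted p of 0.0504. Sox10 was highest in WT-Veh mouse 3, at 2753 against 1817 to 2136 in the other vehicle mice.

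**Figure D2:**
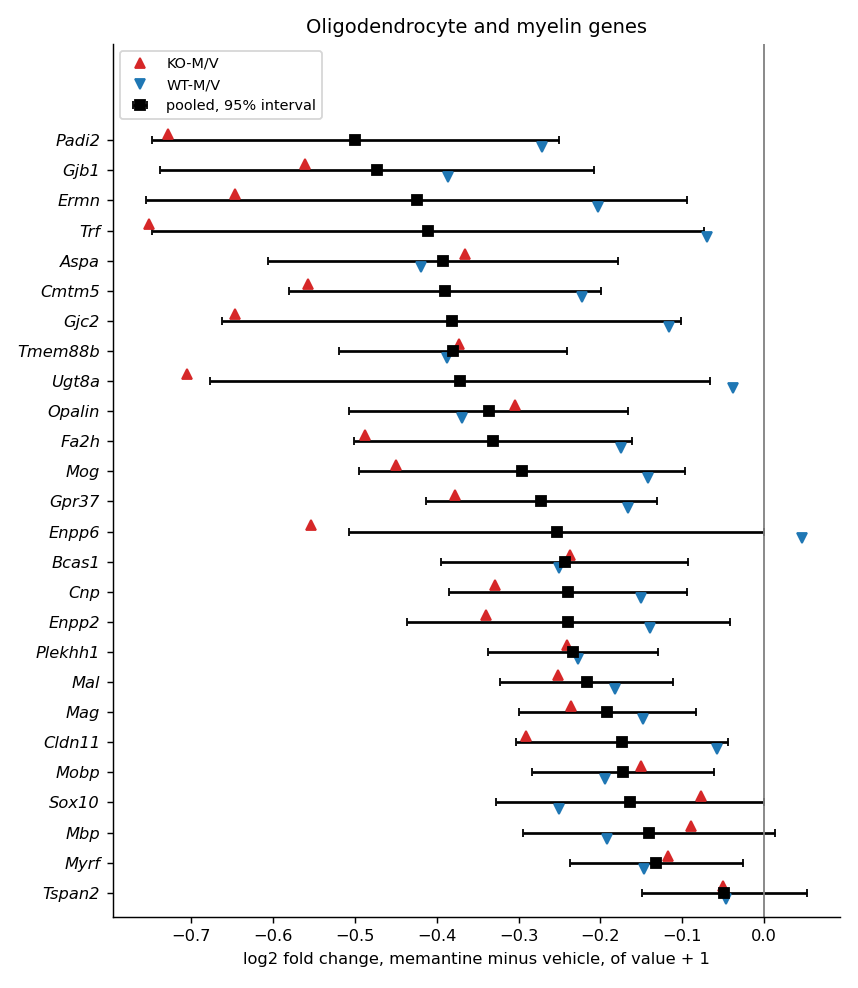
Log2 difference (memantine minus vehicle, of the value plus 1) for 26 of the 27 oligodendrocyte and myelin genes. Squares and bars give the pooled difference with its 95% interval, triangles the difference in 3 against 3 KO mice (up) and WT mice (down), and all 26 squares lie left of 0 while Enpp6 in WT mice lies right of it.

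Markers of oligodendrocyte precursors lay close to 0 as a list. Of 10 genes tested, 7 lay below 0 and the median was -0.024. An unadjusted p under 0.05 was reached by 1, in the higher direction, against 3.64% of all genes. That gene was Vcan, the proteoglycan versican, at 963, 979 and 957 with vehicle against 1099.7, 1071 and 956 with memantine in WT mice, and 1039.8, 1071 and 1146 with vehicle against 1176, 1286 and 1158 with memantine in KO mice. All memantine mice but WT-Mem mouse 3 lay above the vehicle mice of their genotype, and the difference was 0.13 ± 0.052 (SE), with an unadjusted p of 0.0243. Pdgfra, the growth factor receptor that defines precursors, differed by -0.019 ± 0.054, and Cspg4, which encodes NG2, by -0.038 ± 0.068. Gpr17, a receptor of cells committed to differentiate, had 5719, 5369 and 5978 with vehicle against 6134, 5892 and 5657 with memantine in WT mice, and 5107, 4978 and 4403 with vehicle against 2953, 3899 and 4906 with memantine in KO mice. KO-Mem mice were lower than KO-Veh mice except for mouse 3, WT groups overlapped, and the pooled difference was -0.14 ± 0.10 (SE), with an unadjusted p of 0.192. It was -0.033 without KO-Mem mouse 1.

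The myelin difference was spread unevenly over the memantine mice. The median deviation of the 27 genes from their mean over 12 mice was 0.19, 0.25 and 0.39 with vehicle against 0.066, -0.020 and 0.20 with memantine in WT mice, and 0.016, 0.049 and -0.038 with vehicle against -0.53, -0.31 and -0.16 with memantine in KO mice. KO-Mem mouse 1 was the lowest, and WT-Mem mouse 3 overlapped the WT-Veh mice in this measure. Leaving out any one mouse gave a median of -0.29 to -0.22 and 20 to 26 genes with an unadjusted p under 0.05. Without both WT-Veh mouse 3 and KO-Veh mouse 3 the count was 23 and the median -0.27. Without genotype as a covariate the count was 12. The summed values were 418573 to 494518 with vehicle against 368896 to 427527 with memantine in WT mice, and 361853 to 382178 with vehicle against 291998 to 347803 with memantine in KO mice.

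Of the 12 lower genes with the smallest p, 3 were on the myelin list and 9 were not. Prr5l, which encodes a protein that binds mTOR complex 2, had 483, 651 and 525 with vehicle against 385, 318 and 405 with memantine in WT mice, and 362, 495 and 357 with vehicle against 237, 254 and 303 with memantine in KO mice. Within each genotype the memantine mice lay below the vehicle mice, and the difference was -0.59 ± 0.11 (SE), with an unadjusted p of 4.77e-05. Prr18, without an established role, and Tmem63a, a mechanosensitive channel gene mutated in a human hypomyelination disorder, also separated in both genotypes and differed by -0.35 ± 0.077 and -0.25 ± 0.056. The largest of these 12 differences was that of Abhd12b, a hydrolase gene, at 147, 143 and 153 with vehicle against 71.8, 99.5 and 66.8 with memantine in WT mice, and 48.2, 74.7 and 46.7 with vehicle against 21.5, 14.9 and 43.4 with memantine in KO mice. Its values in KO-Veh mice were all below those of WT-Veh mice, and the memantine difference was -1.03 ± 0.22 (SE), with an unadjusted p of 0.000237.

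The other lower genes of this set have varied roles. Abca7, a lipid transporter gene, differed by -0.29 ± 0.062 (SE), with an unadjusted p of 0.000280. Mboat1, a lysophospholipid acyltransferase gene, differed by -0.67 ± 0.15 (SE), with an unadjusted p of 0.000457. The tetraspanin gene Cd82 differed by -0.43 ± 0.098 and 3830406C13Rik, a gene without an established role, by -0.35 ± 0.067. Uba7, which encodes the enzyme that activates the ubiquitin-like protein ISG15, had 109, 147 and 228 with vehicle against 78.2, 68.7 and 70.1 with memantine in WT mice, and 157, 154 and 132 with vehicle against 126, 84.8 and 102 with memantine in KO mice. Its difference was -0.80 ± 0.17 (SE), with an unadjusted p of 0.000286. All memantine mice lay below the vehicle mice of their genotype in Uba7, and WT-Veh mouse 3 was the highest of all 12.

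Markers of other nonneuronal cells had a smaller share of members under the unadjusted threshold than the myelin list, and most lay below 0 except in endothelium. Over all genes 49.6% lay below 0 and 4.97% had a lower unadjusted p under 0.05. Of 17 meningeal and fibrillar collagen genes 14 lay below 0 and 9 had a lower unadjusted p under 0.05 (median -0.24), of 10 pericyte and smooth muscle genes 9 and 4 (median -0.22), of 16 microglial genes 15 and 3 (median -0.14), of 15 choroid plexus genes 13 and 4 (median -0.19), of 8 ependymal genes 8 and 2 (median -0.31), and of 16 endothelial genes 8 and 5 (median -0.035). The choroid plexus median was -0.30 in KO-M/V against -0.00094 in WT-M/V, and -0.068 in the pooled comparison without KO-Mem mouse 1. The ependymal median was -0.36 in KO-M/V against -0.12 in WT-M/V, and the endothelial median was -0.019 in KO-M/V against -0.12 in WT-M/V. Slc13a4 stands in both the meningeal and choroid plexus lists, Enpp2 in the choroid plexus and myelin lists, and Pdgfra in the precursor and meningeal lists. None of these lists had a higher member with an unadjusted p under 0.05. Acta2, the smooth muscle actin, had 507, 509.7 and 462 with vehicle against 429.7, 368 and 439 with memantine in WT mice, and 377, 367 and 472 with vehicle against 279, 337 and 284 with memantine in KO mice, and its difference was -0.34 ± 0.084 (SE), with an unadjusted p of 0.000936. The memantine mice lay below the vehicle mice of their genotype. Lum, the proteoglycan lumican of connective tissue, had 73.8, 62.4 and 78.0 with vehicle against 63.2, 38.3 and 49.1 with memantine in WT mice, and 60.2, 81.3 and 64.2 with vehicle against 27.8, 26.9 and 55.9 with memantine in KO mice. Its difference was -0.74 ± 0.20 (SE), with an unadjusted p of 0.00195. KO-Mem mouse 3 was nearer the vehicle mice than the other KO-Mem mice in Lum, and the WT groups overlapped by a single mouse.

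Further glial and vascular markers are given by their pooled differences. Vtn, the vitronectin of pericytes, differed by -0.28 ± 0.077 (SE), with an unadjusted p of 0.00246. Csf1r, the receptor on which microglia depend for survival, differed by -0.21 ± 0.068 (SE), with an unadjusted p of 0.00681, and the microglial lectin Siglech by -0.37 ± 0.13 (SE), with an unadjusted p of 0.0136. In endothelium, the receptor gene Tie1 was lower in the memantine mice of both genotypes (-0.30 ± 0.087), and Tek differed by -0.25 ± 0.084. The summed meningeal values were 15826 to 17733 with vehicle against 13881 to 15180 with memantine in WT mice, and 14626 to 14944 with vehicle against 13216 to 15123 with memantine in KO mice, and none of these markers was at 0 in a whole group. The part of these cell types in the myelin result was not tested.

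Astrocyte markers went both ways: 4 of 15 had a lower and 2 a higher unadjusted p under 0.05, with a median of -0.032. Over all genes these shares were 4.97% and 3.64%. Aqp4, the water channel of astrocyte endfeet, had 3875, 4690.4 and 4209 with vehicle against 3918, 3462 and 3489 with memantine in WT mice, and 2627, 3595 and 2971 with vehicle against 2036, 2148 and 2826 with memantine in KO mice. A single memantine mouse overlapped the vehicle mice in each genotype, and the difference was -0.31 ± 0.089 (SE), with an unadjusted p of 0.00308. Fgfr3 had 4400.3, 4153 and 4518 with vehicle against 4986, 4532 and 4489.9 with memantine in WT mice, and 4856, 5079.8 and 4444 with vehicle against 5727, 5387 and 5555 with memantine in KO mice. Its difference was 0.16 ± 0.047 (SE), with an unadjusted p of 0.00434. KO-Mem mice were above the KO-Veh mice in Fgfr3 and the WT groups overlapped. S100b, which oligodendrocytes also express, differed by -0.24 ± 0.076. Neuronal lists stayed near 0, at a median of 0.031 for glutamatergic and 0.038 for GABAergic markers. Of 10 glutamatergic markers 1 had a higher and 0 a lower unadjusted p under 0.05 (limma). Of 12 GABAergic markers 1 had a lower and 0 a higher one, and the lower gene was Pvalb (-0.26 ± 0.098).

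**Figure D3:**
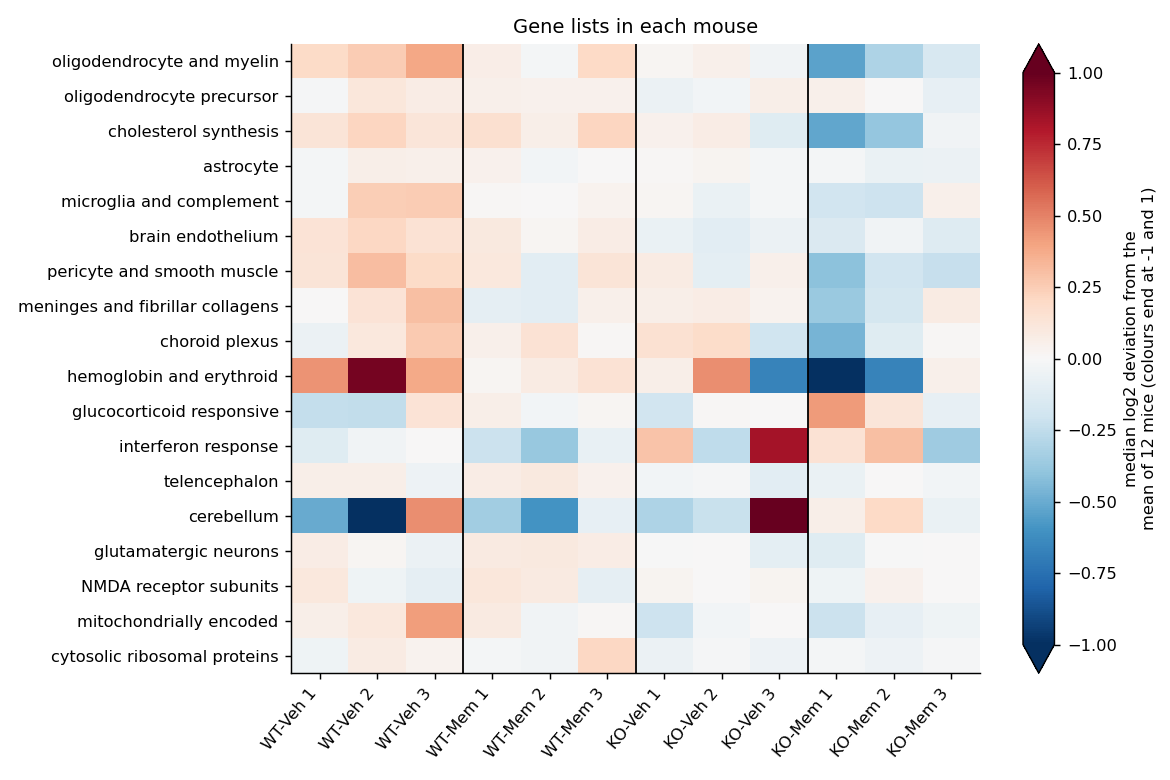
Median log2 deviation from the mean of 12 mice for 18 gene lists (rows) in each mouse (columns), with colours ending at -1 and 1. The myelin, cholesterol, pericyte, and meningeal rows are lowest in KO-Mem mouse 1 and highest in a WT-Veh mouse, and the cerebellar row stands out in KO-Veh mouse 3.

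Most genes of cholesterol synthesis and its control had lower pooled values, with a larger median difference in KO than in WT mice. Of 19 genes 18 lay below 0, with a median of -0.18. In the pooled comparison 10 had a lower unadjusted p under 0.05 against 4.97% of all genes. In KO-M/V 12 had a lower unadjusted p under 0.05 against 4.53% of all genes (median -0.30), and in WT-M/V 1 did against 2.45% of all genes (median -0.028). Nsdhl, which encodes the sterol dehydrogenase that removes the C4 carboxyl carbon, was the member of WT-M/V with an unadjusted p under 0.05, and had 732, 722 and 779.9 with vehicle against 625, 611 and 689.7 with memantine in WT mice, and 573, 594 and 494 with vehicle against 385, 400.1 and 551 with memantine in KO mice. WT groups did not overlap, KO-Mem mouse 3 lay among the KO-Veh mice, and the pooled difference was -0.27 ± 0.085 (SE), with an unadjusted p of 0.00611.

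Cyp51 encodes the lanosterol demethylase. The normalised values of Cyp51 were 2551, 2612 and 2297 with vehicle against 2292, 2386 and 2554 with memantine in WT mice, and 2382, 2482 and 2099 with vehicle against 1451, 1561 and 2100.1 with memantine in KO mice. KO-Mem mice 1 and 2 were far below every other mouse, KO-Mem mouse 3 lay at the level of the lowest KO-Veh mouse, and the WT groups overlapped. The difference was -0.25 ± 0.095 (SE), with an unadjusted p of 0.0175, made of -0.46 in KO-M/V against -0.044 in WT-M/V (interaction unadjusted p = 0.0216). Sc5d, Msmo1, and Hmgcs1, the latter encoding the synthase at the entry of the pathway, differed by -0.21, -0.34, and -0.22, with unadjusted p-values of 0.0189, 0.0195, and 0.0475. Without KO-Mem mouse 1 Sc5d and Hmgcs1 differed by -0.13 and -0.14. The count of 10 was 4 without KO-Veh mouse 1 and 14 without WT-Mem mouse 3.

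Hemoglobin and erythroid genes, whose RNA in brain tissue comes mostly from blood left in its vessels, had lower values in both genotypes. All 9 genes lay below 0 and 5 had a lower unadjusted p under 0.05 against 4.97% of all genes, with a median of -0.59 that was -0.56 in KO-M/V against -0.55 in WT-M/V. Of these genes 0 had a lower unadjusted p under 0.05 in KO-M/V, against 4.53% of all genes, and 6 did in WT-M/V, against 2.45% (limma). Hbb-bs, a beta chain, had 6426, 8331 and 7169 with vehicle against 4163, 4483 and 4942 with memantine in WT mice, and 4534, 6325 and 2639 with vehicle against 1654, 2164 and 3970.2 with memantine in KO mice. The WT groups did not overlap, as in 9.27% of all genes, the KO groups did, against 14.0% that did not, and KO-Veh mouse 3 lay among the KO-Mem mice. The pooled difference was -0.74 ± 0.20 (SE), with an unadjusted p of 0.00194, and those of Hba-a1, Hba-a2, and Hbb-bt were -0.55, -0.59, and -0.73. The alpha genes are near-identical copies, as are the beta genes, so how reads were shared between them is uncertain. Slc4a1, the anion exchanger of the red cell membrane, differed by -1.44 ± 0.61. The summed values were 28262 to 35550.4 with vehicle against 22041 to 24313 with memantine in WT mice, and 15175 to 27652 with vehicle against 12886 to 21417 with memantine in KO mice. The count of 5 was 3 without WT-Veh mouse 2 and 7 without KO-Veh mouse 3, and the part of blood content in the other results was not tested.

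Several genes that glucocorticoids induce had higher values with memantine. Of 14 genes 11 lay above 0, 4 had a higher unadjusted p under 0.05 against 3.64% of all genes, 1 had a lower one, and the median was 0.19, or 0.12 without KO-Mem mouse 1. In KO-M/V 5 had a higher and 1 a lower unadjusted p under 0.05, against 4.28% and 4.53% of all genes (limma). In WT-M/V these counts were 2 and 0, against 1.51% and 2.45%. The median was 0.23 in KO-M/V against 0.12 in WT-M/V. Fkbp5, a co-chaperone that dampens the glucocorticoid receptor and is induced by it, had 1147, 888 and 1196 with vehicle against 1551, 1280.0 and 1469 with memantine in WT mice, and 1422, 1578 and 1769.7 with vehicle against 3313, 2269 and 1790.0 with memantine in KO mice. Memantine mice lay above vehicle mice in both genotypes, by little between KO-Mem mouse 3 and KO-Veh mouse 3, and the difference was 0.50 ± 0.12 (SE), with an unadjusted p of 0.000910. The KO-Veh and WT-Mem mice overlapped.

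Cdkn1a and Plin4 were highest in KO-Mem mouse 1. Cdkn1a, the cell cycle inhibitor p21, had 351, 363 and 412 with vehicle against 447, 448 and 500.4 with memantine in WT mice, and 369, 458 and 338 with vehicle against 982, 607 and 425 with memantine in KO mice. Its difference was 0.51 ± 0.16 (SE), with an unadjusted p of 0.00514. The WT groups did not overlap in it, and KO-Mem mouse 3 lay among the KO-Veh mice. Plin4, a lipid droplet coat gene, had 115, 73.3 and 186 with vehicle against 191, 112 and 157 with memantine in WT mice, and 119, 189 and 152 with vehicle against 1287, 492 and 181 with memantine in KO mice. Its difference was 1.02 ± 0.39 (SE), with an unadjusted p of 0.0189. Its groups overlapped in both genotypes, and without KO-Mem mouse 1 the pooled differences of Cdkn1a and Plin4 were 0.35 and 0.64. Sult1a1, a phenol sulfotransferase gene, differed by 0.42 ± 0.18, whereas Pdk4, a kinase that inhibits pyruvate dehydrogenase, differed in the lower direction by -0.20 ± 0.083 (SE), with an unadjusted p of 0.0305. Of the widely used members Sgk1 and Tsc22d3, neither had an unadjusted p under 0.05 (0.032 ± 0.15 and -0.098 ± 0.13).

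The 12 higher genes with the smallest p belonged to no single list. Zfp251, a zinc finger gene, had 1609, 1573 and 1508 with vehicle against 1766, 1705 and 1709 with memantine in WT mice, and 1589.5, 1598 and 1634 with vehicle against 1881, 1849 and 1859 with memantine in KO mice. All 6 memantine mice were above all 6 vehicle mice, a separation seen in 17 genes (0.0963%) and in the lower direction in 13 (0.0736%), and the difference was 0.18 ± 0.039 (SE), with an unadjusted p of 0.000397. Tmem232 separated in the same way, at 41.6, 44.1 and 37.6 with vehicle against 54.0, 59.5 and 56.6 with memantine in WT mice, and 45.6, 44.6 and 47.3 with vehicle against 101, 99.8 and 55.0 with memantine in KO mice, with a difference of 0.64 ± 0.16 (SE), with an unadjusted p of 0.00110. Irs2, the adaptor of the insulin and insulin-like growth factor receptors, had 2939, 2839.7 and 2622 with vehicle against 3367, 2981 and 3518 with memantine in WT mice, and 3319.9, 2878 and 2846 with vehicle against 3577, 3652 and 3342 with memantine in KO mice. Its memantine mice were above the vehicle mice of their genotype, and the difference was 0.23 ± 0.054 (SE), with an unadjusted p of 0.000727.

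Mir670hg, a noncoding host transcript, had the largest of these differences, at 1.01 ± 0.22 (SE), with an unadjusted p of 0.000423. It was followed by Gm47108, a transcript of uncertain status with a highest value of 42.6, at 0.88 ± 0.21 (SE), with an unadjusted p of 0.000645, and Atp2c2, a calcium and manganese pump of the secretory pathway, at 0.72 ± 0.17 (SE), with an unadjusted p of 0.000813. Tacc3, a spindle protein, differed by 0.40 ± 0.10. Pip5k1a, which makes the phosphoinositide PIP2, differed by 0.32 ± 0.079, Taf9 by 0.45 ± 0.11, the mitochondrial dehydrogenase gene Dhtkd1 by 0.42 ± 0.10, and the acetyltransferase gene Kat14 by 0.25 ± 0.060.

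The largest pooled differences with an unadjusted p under 0.05 were in genes of low value. Gm10131, Gm43302, and Gm45062 were lower by values of -2.99, -2.75, and -1.91 on the log2 scale, and each was listed at 0 in some mice. Gm28900 and Gm44850 were higher (2.25 and 1.38), and the first of these was listed at 0 in 3 vehicle mice. Lcn2, the iron-binding lipocalin of the acute phase, had 6.78, 8.48 and 10.2 with vehicle against 16.4, 9.82 and 7.14 with memantine in WT mice, and 5.07, 3.49 and 19.5 with vehicle against 46.6, 48.7 and 44.8 with memantine in KO mice. The 3 KO-Mem mice were above all other mice, and the pooled difference was 1.42 ± 0.44 (SE), with an unadjusted p of 0.00587. It averaged 2.53 in KO-M/V against 0.30 in WT-M/V.

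**Figure D4:**
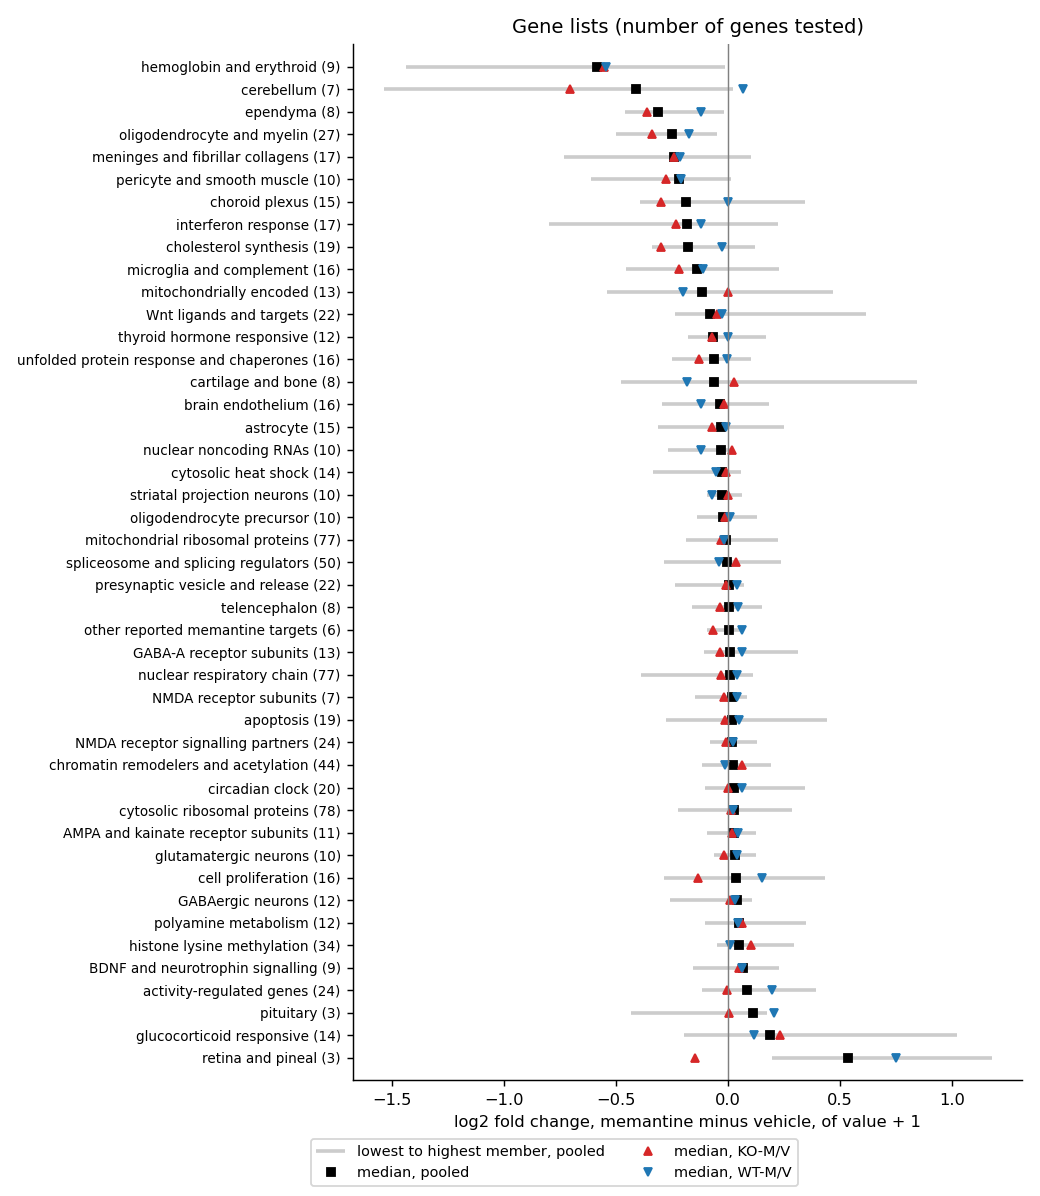
Median log2 difference of each of 45 gene lists (number of genes tested in brackets) in the pooled comparison (squares), KO-M/V (up triangles), and WT-M/V (down triangles), with grey bars from the lowest to the highest pooled member. The hemoglobin, ependymal, and myelin lists lie left of 0 in both genotypes, the glucocorticoid list lies right of it in both, and the NMDA receptor subunits lie close to it.

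The targets of memantine itself differed little. Of the 7 NMDA receptor subunits 3 lay below 0, and the median was 0.015. An unadjusted p under 0.05 was reached by 1, against 8.60% of all genes. Grin1, the obligatory subunit, had 22317, 21010.4 and 20159 with vehicle against 22198, 21872 and 21791 with memantine in WT mice, and 22119, 22147 and 21582 with vehicle against 25268, 23516 and 22419.8 with memantine in KO mice. KO-Mem mice were above KO-Veh mice, WT mice overlapped, and the difference was 0.083 ± 0.039 (SE), with an unadjusted p of 0.0522 and a 95% interval of -0.00088 to 0.17. Grin2c, the subunit of cerebellar granule cells and some forebrain cells, had 1857, 1689 and 1864 with vehicle against 1681, 1708 and 1639.8 with memantine in WT mice, and 1498, 1619.6 and 1633 with vehicle against 1219, 1406 and 1535 with memantine in KO mice. Its groups overlapped in both genotypes and the difference was -0.15 ± 0.057 (SE), with an unadjusted p of 0.0184.

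The 2 main partners in the forebrain, Grin2a and Grin2b, differed by 0.020 (95% interval -0.13 to 0.17) and 0.017 (-0.18 to 0.21). Grin2b was lowest in WT-Mem mouse 3, at 12721 against 17847 to 20653 in the other memantine mice. Grin2d differed by -0.049 (-0.17 to 0.069), Grin3a by 0.015 (-0.089 to 0.12), and Grin3b, with a mean value of 20.7, by -0.11 (-0.80 to 0.58). The signs of Grin2a, Grin2b, Grin3a, and Grin3b turned when single mice were left out. Other proteins that memantine has been reported to bind were also close to 0: of 6 genes tested none reached the unadjusted threshold. The dopamine receptor gene Drd2 had the smallest p, with a difference of -0.096 ± 0.068 (limma, unadjusted p = 0.180).

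Synaptic lists had medians close to 0. Over all genes 4.97% had a lower and 3.64% a higher unadjusted p under 0.05 (limma). Of 24 NMDA receptor signalling partners 1 had a higher and 0 a lower unadjusted p under 0.05 (median 0.018), of 11 AMPA and kainate receptor subunits 0 in either direction (median 0.028), of 13 GABA-A receptor subunits 2 higher (median 0.0073), and of 22 presynaptic genes 1 lower (median 0.0016). Of 24 activity-regulated genes such as Fos and Arc, 3 lay below 0 and 0 had an unadjusted p under 0.05 in either direction (limma), with a median of 0.085 that was -0.0060 in KO-M/V against 0.19 in WT-M/V. The pooled median was -0.017 without WT-Veh mouse 1 and 0.19 without KO-Veh mouse 1.

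KO-M/V and WT-M/V share no mouse, so their directions could be set side by side. The sign was the same in 54.9% of the 17655 genes, with a Pearson r across genes of 0.022. That r ranged from -0.037 to 0.048 without single mice. It was 0.108 when genes with a 0 in any mouse were left out and 0.064 with a pseudocount of 5. These values are a description because genes are not independent replicates. Of 120 genes with an unadjusted p under 0.05 in both genotypes 79.2% had the same sign. In 71 of them both were lower, 10 of which were on the myelin list, and in 24 both were higher, none of which was. In KO-M/V alone 0 genes passed the threshold and 1555 (8.81%) had an unadjusted p under 0.05, 799 lower (4.53%) and 756 higher (4.28%). Without KO-Mem mouse 1 these were 445 lower and 354 higher genes, and without KO-Mem mouse 3 they were 1687 and 1599. In WT-M/V alone 2 genes passed (0.0113%), Gm43302 and Zxda, with 700 (3.96%) under an unadjusted p of 0.05, 433 lower (2.45%) and 267 higher (1.51%). Both passing genes were listed at 0 in some KO mice and in every WT-Mem mouse, so their size depends on the pseudocount.

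**Figure D5:**
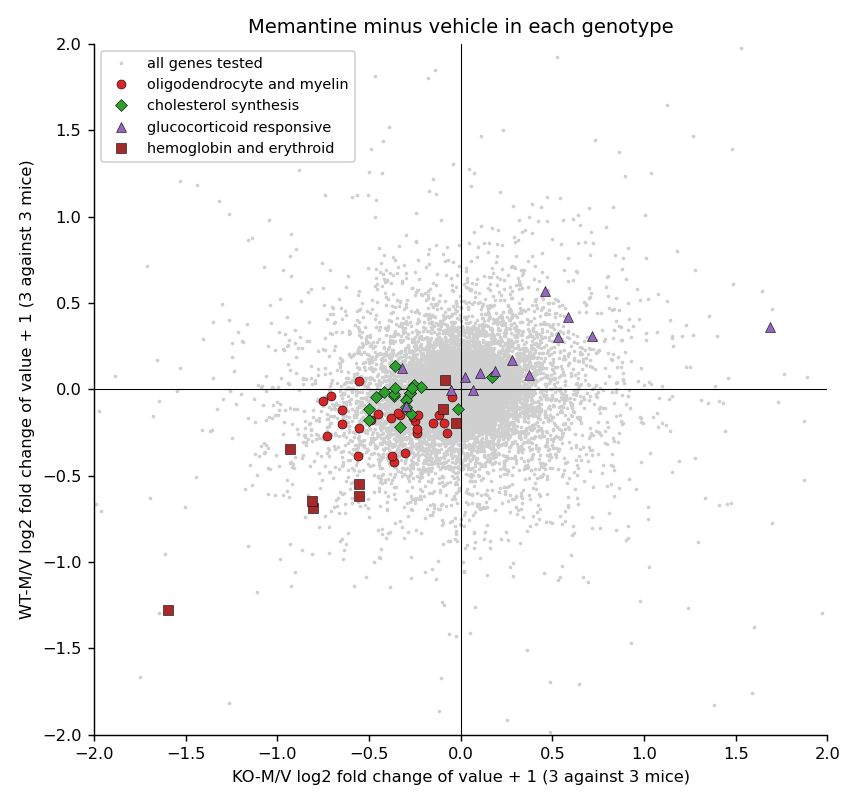
Log2 difference of memantine minus vehicle in 3 against 3 WT mice (vertical) against that in 3 against 3 KO mice (horizontal) for all genes tested, with 55 genes beyond the axes. Oligodendrocyte genes lie mostly to the lower left, cholesterol genes lie left of 0 in 18 of 19 cases, with a median of -0.028 on the vertical axis, and glucocorticoid responsive genes reach into the upper right.

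The difference between genotypes was tested by the interaction. It had 0 genes past the threshold (smallest adjusted p = 0.947) and 840 (4.76%) with an unadjusted p under 0.05, of which 414 (2.34%) were more negative and 426 (2.41%) more positive in KO mice. In the myelin list 6 of 27 and in the cholesterol list 6 of 19 had a more negative value in KO mice with an unadjusted p under 0.05. Ugt8a, which makes the galactolipid of myelin, differed by -0.70 in KO-M/V against -0.037 in WT-M/V (interaction -0.67, unadjusted p = 0.0139), and Enpp6 by -0.55 and 0.047 (unadjusted p = 0.00637). Without KO-Mem mouse 3, 4 genes passed the interaction threshold, among them Ugt8a, and 18 passed in KO-M/V, of which 4 were on the myelin list.

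The genes with the smallest interaction p had opposite signs in the genotypes. Col24a1, a fibrillar collagen gene, had 317, 388 and 378 with vehicle against 264, 226 and 309.7 with memantine in WT mice, and 307, 271 and 279 with vehicle against 366, 397 and 398 with memantine in KO mice. Memantine mice were below vehicle mice in WT and above them in KO mice, giving an interaction of 0.88 with an unadjusted p of 0.000169. Gm3764, Fgfbp1, and the centrosomal gene Nin had the same pattern (0.49, 1.44, and 0.45), and Agtpbp1, a deglutamylase gene, had the reverse (-0.40). Zxda had the smallest p of all (7.5e-05) and had a value of 0 in KO-Veh mouse 1 and in all 3 mice of WT-Mem.

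The genes that the study lists for one genotype were chosen on those mice, so their value in the other genotype is the one that the choice did not use. The study called them with DESeq2 at an adjusted p under 0.05, whereas limma on log2 values was used here. With limma 0 genes passed in KO-M/V, and the 2 that passed in WT-M/V were not among those the study lists for WT-M/V. Of the 14 genes listed for KO-M/V 11 had the same sign in WT-M/V and 2 had an unadjusted p under 0.05 there, against 3.96% of all genes. These were Padi2 (-0.27) and Cmtm5 (-0.22). Fa2h, which hydroxylates myelin lipids, was at -0.18, Apaf1 at 0.33, Col9a3 at -0.072, Wnt10b at 0.36, Pltp at -0.084, Lcn2 at 0.30, Tmbim1 at -0.070, Pde6h at 0.29, and Srp54b, which has close paralogs, at 0.084. Sat1, Matn1, and Rimklb had the opposite sign in WT mice (-0.064, -0.19, and 0.28). Leaving out single mice turned the sign in WT mice for Pde6h, Sat1, Srp54b, and Tmbim1.

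Of the 7 genes listed for WT-M/V 6 had the same sign in KO-M/V and 1 had an unadjusted p under 0.05 there, against 8.81% of all genes. That gene was Uba7 (-0.51). Hbb-bs was at -0.80, Hba-a2 at -0.56, Col1a1 at -0.21, the endothelial adhesion gene Mcam at -0.079, Malat1 at -0.019, and Rbm14, the single gene listed as higher, at -0.027. The signs of Col1a1, Mcam, Malat1, and Rbm14 in KO mice turned without single mice.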

How the data were processed

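Forebrain RNA of 12 mice (poly-A libraries) was sequenced as paired reads. The deposited values are a normalised signal: the authors estimated transcript abundance with Salmon 1.1.0 on GRCm38, summed it to genes with tximport, and normalised it with DESeq2 (1.26.0 and R 3.6.2 in the submitters' processing notes). The values are not whole reads, column sums ranged from 30373849 to 31199251, and sequencing depth is not recoverable from them, so no count test was run. How reads shared by paralogs or by overlapping genes were divided can shift single genes.

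Values were taken as log2(value + 1) for 17655 genes whose mean reached 10 and fitted with limma 3.58.1 (R 4.3.3, trended prior variance) with treatment and genotype as terms. P-values were two-sided and adjusted by the Benjamini-Hochberg method over all genes tested, with a threshold of 0.05. Each genotype alone was fitted on its own 6 mice and the interaction on all 12. The code was tested on simulated data. Intervals are 95% and come from the same fits.

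Named genes were the 12 with the smallest p in each direction, the 3 with the largest difference in each direction at an unadjusted p under 0.05, the 6 with the smallest interaction p, up to 4 members with the smallest p of each other list described, Shank2, the genes of the study's lists, the hemoglobin chains, and the NMDA receptor subunits. Further members of the myelin, precursor, cholesterol, erythroid, and glucocorticoid lists named in the text were chosen after their values were seen. The comparison, the 45 gene lists, and their members were chosen with earlier results of these data known, so counts are descriptions. Same-numbered mice of different groups had correlations of their deviations from -0.175 to 0.0802, with 0 of 18 above 0.1. Pairing by replicate number was therefore not seen, though this check could miss a weak pairing or one limited to few genes. Some list members are counted and not reported here by name. Promoters came from RefSeq (GRCm38.p6). The figures were drawn with matplotlib 3.10.9 in Python 3.11.15.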

Additional observations from a re-analysis of the deposited data

Results flagged for a closer look

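In each arm of 6 mice, 141 values (named genes and list medians) were examined for 1 mouse far from the rest, by the gap to its nearest neighbour as a share of the whole range (critical value 0.625 for 6). Chance alone marks about 1 in 20 such arms, and an arm holds both genotypes. The marks below are all those found, and their share of the values examined lies near that rate. In the vehicle arm WT-Veh mouse 3 was the highest in Mbp (gap 0.706 of the range), Sox10 (0.659), and Gm10131 (0.837) and the lowest in the median of the GABA-A receptor subunits (0.738). KO-Veh mouse 3 was the highest in Pip5k1a (0.650) and Gm45062 (0.721). In the memantine arm KO-Mem mouse 1 was the highest in Cdkn1a (0.674), Plin4 (0.677), Cry2 (0.655), Gm45062 (0.632), and the median of the circadian clock genes (0.691). WT-Mem mouse 3 was the lowest in Grin2b (0.646) and the highest in the medians of the nuclear respiratory chain (0.685) and the cytosolic ribosomal proteins (0.862). KO-Mem mouse 3 was the lowest in the median of the precursor markers (0.677) and the single memantine mouse with a value above 0 in Gm43302 (gap 1).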

How the results depend on the processing

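Over 27 fits of the pooled comparison on mice of both genotypes, 0 genes passed the threshold in any, and the smallest adjusted p was 0.0726 (limma). The smallest and largest values without single mice were 590 and 1212 lower and 426 and 896 higher genes for the pooled comparison, 445 and 1687 lower, 354 and 1599 higher, and 0 and 18 passing genes for KO-M/V, 200 and 442 higher and 1 and 3 passing genes for WT-M/V, and 279 and 894 lower, 315 and 862 higher, and 0 and 4 passing genes for the interaction. The 18 came without KO-Mem mouse 3, as did the 4 (among them Ugt8a, Matn1, and Phyhd1), and without KO-Veh mouse 1 and without WT-Veh mouse 2 the interaction had 1 each (Zxda and Gm15429). Without single mice cholesterol counts ran from 4 to 14, hemoglobin counts from 3 to 7, the endothelial median from -0.082 to -0.015, the share of genes with the same sign from 53.4% to 55.5%, and r from -0.037 to 0.048. Nr1d1 was 0.13 without KO-Mem mouse 1 and Drd2 -0.051 without WT-Veh mouse 2. The sign turned in some of these fits for Grin2a (-0.017 to 0.088), Grin2b (-0.035 to 0.11), Grin3a (-0.0089 to 0.038), Grin3b (-0.29 to 0.10), and Shank2 (-0.050 to 0.011, with 0.0017 without KO-Mem mouse 2). In KO-M/V it turned for Col1a1 (-0.69 to 0.092), Malat1 (-0.20 to 0.18), Mcam (-0.20 to 0.017), and Rbm14 (-0.17 to 0.049), and in WT-M/V for Pde6h (-0.17 to 0.66), Sat1 (-0.19 to 0.070), Srp54b (-0.20 to 0.32), and Tmbim1 (-0.15 to 0.014).

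Without genotype as a covariate 484 genes were lower and 345 higher, with 12 myelin, 1 cholesterol, and 3 hemoglobin genes. Array weights gave 1228 lower and 1126 higher genes for the interaction, 2135 and 2044 for KO-M/V, and 459 higher for WT-M/V, and turned Grin3b (0.078) and Shank2 (0.0035). Without the trend cholesterol had 6 and hemoglobin 3 genes, with a robust prior the glucocorticoid list had 2, and at a minimum mean of 50 the pituitary median was -0.43. The WT-M/V genes past the threshold numbered 1 with a pseudocount of 5 and 0 at a mean of 50, without genes holding a 0, or from 12 mice. With a pseudocount of 5 r was 0.064, and without genes holding a 0 it was 0.108. Quantile normalisation turned Mbp (0.0026). Recomputed size factors changed no call, but they were 1.0039 in every mouse, so rescaling by them could not test the normalisation. Leaving out both WT-Veh mouse 3 and KO-Veh mouse 3, chosen after seeing the data, gave a splicing median of 0.021 and turned Grin2b (-0.011) and Grin3a (-5.2e-05).

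KO mice alone gave medians of -0.069 for other memantine targets, -0.073 for astrocytes, -0.15 for retina, and 0.033 for splicing, 0 hemoglobin genes, and -0.020 for Grin3a. WT mice alone gave 2 passing, 433 lower, and 267 higher genes, medians of -0.12 for endothelium, -0.00094 for choroid plexus, -0.12 for ependyma, -0.0011 for thyroid hormone genes, -0.028 for cholesterol, -0.042 for splicing, and -0.12 for nuclear noncoding RNAs, 11 myelin, 1 cholesterol, and 2 glucocorticoid genes, and opposite signs for Enpp6 (0.047), Gpr17 (0.052), Grin2d (0.041), and Grin3b (0.21). With the replicate block, which the check of pairing did not bear out, the pooled comparison had 870 lower and 631 higher genes and 25 myelin genes, KO-M/V had 488 higher genes, and WT-M/V had 1 past the threshold. The causes of these differences were not tested. With 6 mice per arm the median SE of the pooled differences was 0.0845, against their median size of 0.0752.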

Other observations

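Of the circadian clock list, 13 of 20 genes lay above 0. Of 20 genes 4 had a higher unadjusted p under 0.05, against 3.64% of all genes, and 0 a lower one (limma), with a median of 0.025. Cry1, a repressor of the clock, had 618, 590.3 and 593 with vehicle against 619, 643 and 689 with memantine in WT mice, and 564, 587 and 568 with vehicle against 725, 659.8 and 744 with memantine in KO mice. All 6 memantine mice were above all 6 vehicle mice, narrowly so for WT-Mem mouse 1, and the difference was 0.21 ± 0.059 (SE), with an unadjusted p of 0.00268. Its paralog Cry2 differed by 0.16 ± 0.052 (SE), with an unadjusted p of 0.00847, Npas2, a partner of BMAL1, by 0.20 ± 0.070 (SE), with an unadjusted p of 0.0129, and Nr1d1, which encodes the repressor REV-ERB alpha, by 0.19 ± 0.070 (SE), with an unadjusted p of 0.0143. Nr1d1 overlaps the end of Thra, a thyroid hormone receptor gene on the other strand that differed by 0.17 ± 0.059 (SE), with an unadjusted p of 0.0114, so how reads of the overlap were assigned is uncertain. The time of day at which the mice were killed is not given in the sources used here.

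Writers and erasers of histone lysine methylation had 5 of 34 members with a higher unadjusted p under 0.05, against 3.64% of all genes, and 0 with a lower one (limma), and a median of 0.050 that was 0.10 in KO-M/V against 0.0078 in WT-M/V, and 0.030 in the pooled comparison without KO-Mem mouse 1. Among them were Kdm2b, a demethylase gene (0.29 ± 0.10 (SE), with an unadjusted p of 0.0102), and Suv39h1, which encodes a methyltransferase of histone H3 (0.18 ± 0.066 (SE), with an unadjusted p of 0.0153). Ehmt2 had 6863, 6670.4 and 6027 with vehicle against 6688, 6744 and 7240.2 with memantine in WT mice, and 7407, 7023 and 7726 with vehicle against 10563, 9008 and 7622 with memantine in KO mice. KO-Mem mouse 1 was the highest, the groups overlapped in both genotypes, and the difference was 0.18 ± 0.070 (SE), with an unadjusted p of 0.0192. Among neurotrophin genes 1 of 9 had a higher unadjusted p under 0.05, the neuropeptide precursor gene Vgf (0.23 ± 0.078 (SE), with an unadjusted p of 0.0102).

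Of 17 interferon response genes 16 lay below 0, with a median of -0.19, but Uba7 was the single one with an unadjusted p under 0.05, and KO-Veh mouse 3 had the highest median deviation of the list at 0.83. The list's median was -0.092 without that mouse and -0.34 without KO-Veh mouse 2. Of 13 mitochondrially encoded genes 12 lay below 0, with a median of -0.12 that was 0.0011 in KO-M/V against -0.20 in WT-M/V, and -0.049 without WT-Veh mouse 3. The exception, mt-Co3, had 76320.4, 35232 and 31733 with vehicle against 72374, 64409 and 65057 with memantine in WT mice, and 58539, 31175 and 63085 with vehicle against 53871, 62419.8 and 67257 with memantine in KO mice. WT-Veh mice 2 and 3 and KO-Veh mouse 2 had values far below those of the other mice, and the difference was 0.47 ± 0.20 (SE), with an unadjusted p of 0.0309. Cryab, a small heat shock gene that oligodendrocytes also express, differed by -0.33 ± 0.11 (SE), with an unadjusted p of 0.00617, and Calr, a chaperone gene of the endoplasmic reticulum, by -0.25 ± 0.097 (SE), with an unadjusted p of 0.0209.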
